A study of Mus musculus with 24 samples.

Results

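The 34 genes described here mark monocytes and macrophages and the states these cells take up. They were chosen by gene symbol from a list of inflammatory, tissue-resident and repair-type myeloid genes, and all 34 were found among the 45777 genes of the deposited table. The members and the promoter motifs were chosen with earlier results of these data known. Their shares beside those of all genes are therefore a description and not independent support. Their expression was measured by RNA sequencing of polyadenylated RNA in 24 mouse libraries. Skin and dorsal root ganglia (DRG, the ganglia beside the spinal cord that hold the cell bodies of sensory neurons) were each sequenced from control and from model mice, with 6 libraries in each of the 4 groups. The mice were female BALB/c animals aged 6 weeks. The model is of rosacea, an inflammatory disease of facial skin, and was made by injecting the antimicrobial peptide LL37 into the skin (40 μL at 320 μM, 2 doses a day over 2 days). The series' design text adds that gabapentin, a drug for neuropathic pain, was given by mouth at 100 mg/kg from day 3, and that DRG were taken on day 4. No library label names gabapentin, so the model libraries are described only as model. What the control mice received, when the skin was taken and whether each library is a separate animal is not stated in the labels, so p-values measure the spread between libraries.

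Classical monocytes leave the bone marrow through the chemokine receptor Ccr2, carry the surface antigen encoded by Ly6c2, and enter inflamed tissue, where they can become macrophages. Tissue-resident macrophages, many of them seeded before birth, are recognised by surface receptors such as Mrc1, Cd163, Folr2 and Timd4. Both carry the growth factor receptor Csf1r. Both can take up a repair-type state in which genes such as Trem2, Spp1, Arg1, Chil3 and Retnla are used. In bulk tissue a change in the number of such cells and a change in RNA per cell cannot be told apart, and this holds for every value below.

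Library totals ran from 45238735 to 68396846 counted reads. Levels are given as CPM, gene counts divided by the library's size after TMM scaling, which evens out differences in library composition, and changes as log2 fold changes with their standard error (SE) from edgeR's quasi-likelihood test with Benjamini-Hochberg adjustment over all genes tested in the tissue. The labelled tissues matched their markers: 5 keratinocyte genes summed to between 6816 and 22886 CPM in skin and to at most 4.78 CPM in DRG, and 6 sensory neuron genes summed to between 5280 and 7364 CPM in DRG and to at most 42.6 CPM in skin. Several libraries stood apart from their group. Model skin library 5 had the lowest level of its group in 28 of the 33 members tested in skin. Model skin library 2 held B and T cell transcripts far above the other skin libraries (Cd79a at 33.4 CPM against at most 2.79, Cd3e at 24.9 CPM against at most 5.49). Model DRG library 5 held blood and bone marrow transcripts far above the other DRG libraries (Ngp at 165 CPM against at most 37.2, Hbb-bs at 593 CPM against at most 201). Calls and fold changes of members that these libraries altered are given with and without them.

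In model skin 30 of the 33 members tested rose, 1 fell and 2 did not pass the test. Over all 19526 genes tested in skin, 14.1% rose and 5.82% fell. Of all called genes 70.8% were higher, a share that was 60.3% with DESeq2 and 85.8% or 86.2% with limma on log2 TPM at a pseudocount of 1 or 0.1. The folds of the risen members ran from 1.51 to 29.8 with a median of 7.05, and 29 of them rose at least 2-fold and 14 at least 8-fold. The median log2 fold change of the 33 members was 2.70, beside -0.02 for all genes tested. For 25 members the 6 model libraries were all higher than the 6 controls, a separation seen in 7.25% of all genes tested, while the ranges of 5 risen members overlapped. The reverse separation, seen in 1.44% of all genes tested, occurred in no member. The count of risen members stayed at 30 when model skin library 5 or model skin library 2 was left out.

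**Figure D1:**
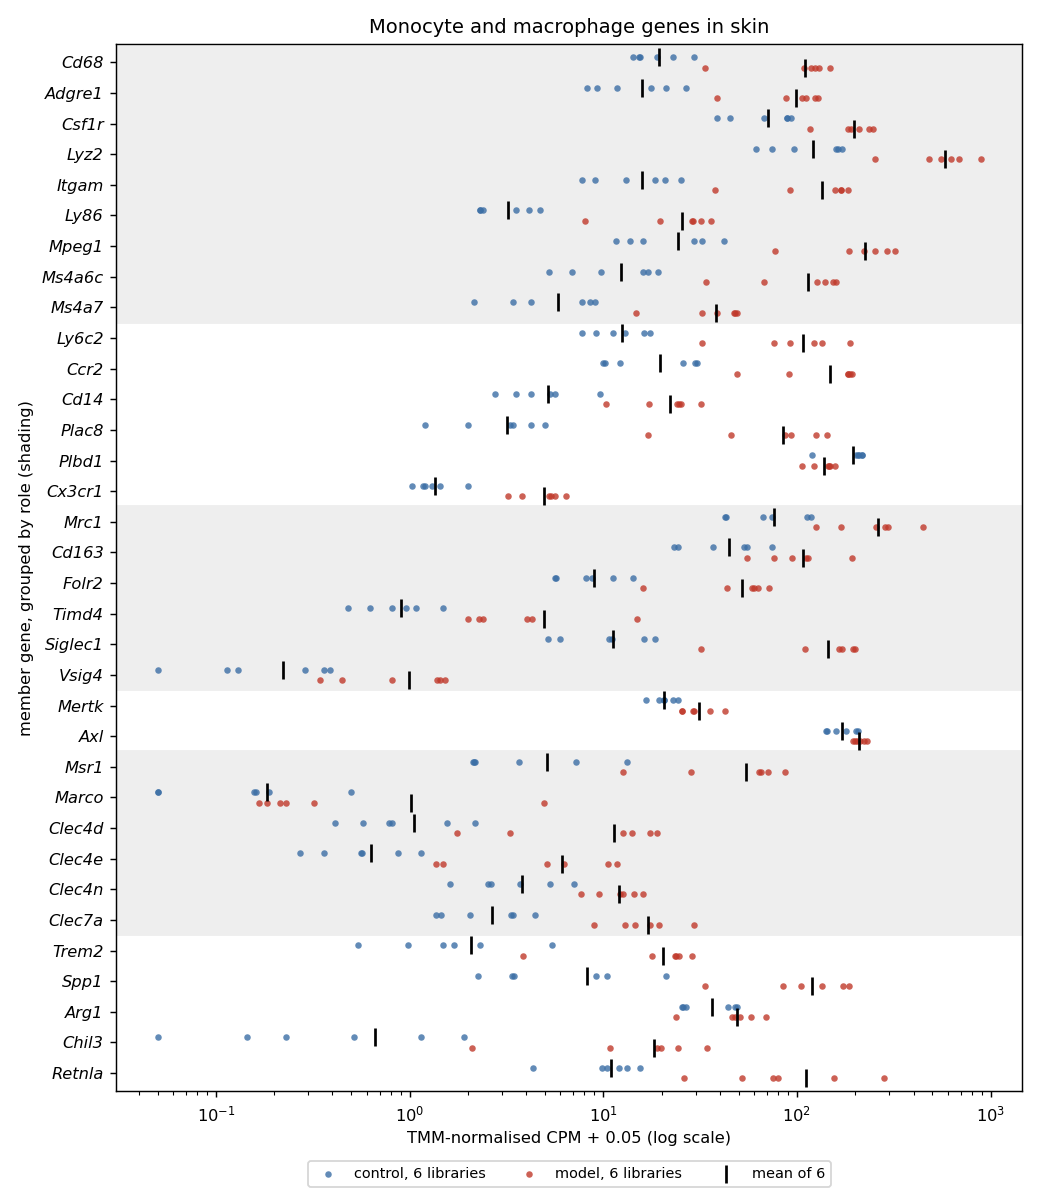
Level of each member in the 12 skin libraries, as TMM-normalised CPM plus 0.05 on a log axis; blue points are the 6 control libraries, red points the 6 model libraries, black ticks the group means, and grey and white bands separate the 6 role groups. The red points lie to the right of the blue points without overlap for 25 members, whereas 5 risen members overlap, Plbd1 lies slightly to the left and Axl, Arg1 and Marco overlap.

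Promoter sequences are shown for 6 risen members, chosen because they cover 5 role groups and hold the motif searched. The reference table of RefSeq windows (build GRCm38.p6, 250 bases before to 50 after a transcript start) had windows for 27 of the 34 members. The motif GAGGAA, on either strand (read as TTCCTC on the other), is the core of sites bound by PU.1, the myeloid transcription factor encoded by Spi1. It occurred in 17 of 33 member windows (51.5%) and in 28.3% of all 32851 windows. Among the risen members with a window 13 of 24 held it. So did 2 of the other 3 with a window, Axl and Marco, of which Marco had too few counts to be tested in skin. The core of the interferon-stimulated response element, a pair of GAAA units separated by any 2 bases, was searched on both strands and occurred in 2 of 33 member windows (6.06%) and in 3.44% of all windows. Matches are a description of the letters and not evidence of binding. The stretches below end at the transcript start or the edge of the annotated gene, are written 5′ to 3′ on the strand of the gene, and show matches to either motif in capitals.
Itgam, chr7:128062480-128062639, plus strand: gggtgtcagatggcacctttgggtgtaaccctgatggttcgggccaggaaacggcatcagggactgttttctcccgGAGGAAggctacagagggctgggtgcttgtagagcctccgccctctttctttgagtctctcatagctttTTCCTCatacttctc
Plac8, chr5:100572254-100572365, minus strand: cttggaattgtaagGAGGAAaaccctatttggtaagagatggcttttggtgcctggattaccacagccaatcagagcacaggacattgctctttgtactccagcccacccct
Mrc1, chr2:14229254-14229413, plus strand: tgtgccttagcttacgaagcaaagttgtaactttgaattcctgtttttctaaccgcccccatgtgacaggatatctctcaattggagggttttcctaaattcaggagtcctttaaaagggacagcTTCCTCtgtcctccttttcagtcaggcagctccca
Clec4e, chr6:123289872-123290031, minus strand: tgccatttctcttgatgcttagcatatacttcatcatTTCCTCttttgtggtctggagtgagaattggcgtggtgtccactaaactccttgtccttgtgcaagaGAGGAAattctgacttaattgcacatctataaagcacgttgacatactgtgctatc
Trem2, chr17:48346241-48346400, plus strand: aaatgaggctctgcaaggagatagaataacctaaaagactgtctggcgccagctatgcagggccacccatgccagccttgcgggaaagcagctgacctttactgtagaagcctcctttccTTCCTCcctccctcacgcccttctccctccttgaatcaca
Spp1, chr5:104434951-104435110, plus strand: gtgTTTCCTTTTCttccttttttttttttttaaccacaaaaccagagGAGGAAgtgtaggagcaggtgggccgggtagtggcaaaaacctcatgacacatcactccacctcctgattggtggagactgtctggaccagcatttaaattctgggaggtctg

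All 9 genes of lineage and phagocyte identity rose, with log2 fold changes between 1.49 and 3.22 and no overlap between groups. Csf1r, the receptor that keeps macrophages alive, had a lowest, median and highest control level of 38.6, 78.2 and 93.6 CPM and of 117, 200 and 247 CPM in the model. Every model library exceeded every control library, and the mean rose 2.80-fold from 70.5 ± 23.99 to 197 ± 46.1 CPM (SD, n = 6 for this and all later means; log2 fold change 1.49, SE 0.25, adjusted p = 0.00163). Adgre1, which encodes the macrophage surface protein F4/80, ran from 8.19 over 14.7 to 26.8 CPM in control skin and from 38.5 over 109 to 128 CPM in model skin. This 6.28-fold rise was larger than the spread in either group (adjusted p = 0.000583). The largest changes of the group were those of Mpeg1, Ms4a6c and Itgam.

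Mpeg1, the pore-forming protein of phagocytes, rose 9.32-fold from 24.2 ± 12.2 to 225 ± 87.5 CPM (adjusted p = 0.000553). Ms4a6c, a membrane protein of myeloid cells, rose 9.21-fold from 12.3 ± 5.79 to 113 ± 50.8 CPM (adjusted p = 0.0006). Itgam, the integrin chain CD11b, rose 8.56-fold from 15.7 ± 6.93 to 135 ± 57.6 CPM (adjusted p = 0.000583). The remaining lineage genes rose between 4.83-fold and 8.04-fold. The lysozyme gene Lyz2 went from 121 ± 48.8 to 583 ± 215 CPM and Ly86 from 3.18 ± 1.05 to 25.5 ± 10.2 CPM. Ms4a7 went from 5.81 ± 2.93 to 38.2 ± 13.2 CPM and Cd68, a lysosomal glycoprotein, from 19.3 ± 5.84 to 110 ± 39.8 CPM. Cd68 in model skin library 5 stood at 33.4 CPM, while the other 5 model libraries ran from 108 to 148 CPM and the highest control reached 29.3 CPM.

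Of the 6 genes of recruited and patrolling monocytes, 5 rose and 1 fell. Plac8, abundant in classical monocytes, had a lowest, median and highest level of 1.16, 3.30 and 4.96 CPM in control skin and of 17.02, 90.2 and 142 CPM in model skin. Groups did not overlap, and the mean rose 27.1-fold from 3.14 ± 1.40 to 85.1 ± 47.3 CPM (log2 fold change 4.76, SE 0.53, adjusted p = 0.000548). Ly6c2 ran from 7.76 over 11.995 to 17.4 CPM in control and from 32.3 over 107 to 188 CPM in model skin, an 8.66-fold rise (adjusted p = 0.000548). Ccr2 ran from 9.95 over 18.9 to 30.4 CPM in control and from 49.0 over 183 to 192 CPM in model skin, a 7.51-fold rise (adjusted p = 0.000791). These 3 genes thus differed by more than the spread between libraries. Cd14, the co-receptor for bacterial lipopolysaccharide, rose 4.31-fold to 22.2 ± 7.44 CPM, and Cx3cr1, the fractalkine receptor of patrolling monocytes, rose 3.74-fold to 4.89 ± 1.20 CPM.

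Plbd1, a phospholipase B-like lysosomal protein, was the single member that fell. The control mean of 195 ± 37.3 CPM compared with 138 ± 19.1 CPM for the model (log2 fold change -0.50, SE 0.15, adjusted p = 0.0302). Control skin library 2 held 120 CPM, inside the model range of 106 to 156 CPM, whereas the other 5 control libraries held 202 to 216 CPM. This call was lost in 9 of the 12 fits that leave out 1 skin library, at adjusted p up to 0.0917 without model skin library 4.

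The 6 genes of tissue-resident macrophages all rose, and 4 of them had no overlap between groups. Siglec1, the sialic acid-binding receptor sialoadhesin, changed most, from 5.14, 10.8 and 18.4 CPM (lowest, median, highest) in control to 31.8, 168 and 200 CPM in model skin. All model libraries exceeded all controls, and the rise was 12.95-fold (log2 fold change 3.69, SE 0.46, adjusted p = 0.000553). Folr2, the folate receptor of resident macrophages, rose 5.84-fold from 8.92 ± 3.35 to 52.1 ± 19.98 CPM (adjusted p = 0.000622). Mrc1, the mannose receptor, had control values from 42.7 over 70.7 to 118 CPM and model values from 126 over 270 to 447 CPM. Its rise of 3.45-fold (adjusted p = 0.00391) was the second smallest of the group, after that of the haemoglobin scavenger receptor Cd163 at 2.40-fold (adjusted p = 0.0231).

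Timd4, a receptor for phosphatidylserine on dying cells, rose 5.73-fold (adjusted p = 0.0069), from 0.856 ± 0.357 CPM to a model range of 1.94 to 14.8 CPM. The highest value came from model skin library 2, while the others reached at most 4.22 CPM. Without that library the log2 fold change of Timd4 was 1.79 in place of 2.52 (adjusted p = 0.00395). Vsig4, a complement receptor of resident macrophages, rose 5.40-fold between low levels, from 0.172 ± 0.142 to 0.940 ± 0.524 CPM (adjusted p = 0.0222). Its 2 groups overlapped, as did those of Cd163. The calls of Cd163 and Vsig4 were lost without control skin library 6, at adjusted p = 0.0507 and 0.0540.

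Mertk and Axl are receptor tyrosine kinases through which macrophages and other cells take up apoptotic cells, and Mertk had the smallest rise of the 30. Mertk ran from 16.5 over 20.5 to 24.1 CPM in control and from 25.6 over 29.1 to 42.4 CPM in model skin, without overlap, and rose 1.51-fold (log2 fold change 0.60, SE 0.14, adjusted p = 0.0105). Axl averaged 172 ± 28.9 CPM in control skin and 210 ± 13.5 CPM in the model with overlapping ranges, a ratio of 1.22 that did not pass the test (adjusted p = 0.0727). Axl passed without control skin library 1 (adjusted p = 0.0426) or control skin library 4 (adjusted p = 0.0476).

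All 5 tested scavenger and C-type lectin receptors rose (median log2 fold change 3.38). Clec4d and Clec4e, lectin receptors for mycobacterial glycolipids, rose 11.2-fold (from 1.01 ± 0.678 to 11.3 ± 7.20 CPM, adjusted p = 0.00287) and 10.4-fold (from 0.581 ± 0.329 to 6.05 ± 4.40 CPM, adjusted p = 0.00276). The class A scavenger receptor Msr1 rose 10.8-fold from 5.06 ± 4.47 to 54.5 ± 28.0 CPM (adjusted p = 0.00235). The ranges of Msr1 overlapped, since control skin library 4 held 13.3 CPM and model skin library 5 held 12.6 CPM. Those of Clec4d overlapped as well, with a highest control level of 2.13 CPM and a lowest model level of 1.71 CPM. Clec4n and Clec7a, receptors for fungal cell wall sugars, rose 3.20-fold to 12.03 ± 3.07 CPM and 6.496-fold to 17.05 ± 6.97 CPM, without overlap.

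Marco, the other class A scavenger receptor, had too few counts to be tested. Control skin libraries held between 0 and 21 Marco counts, and 5 of the model libraries held between 6 and 15. The exception was model skin library 2 with 239 counts, or 4.92 CPM, the same library in which Timd4 and the B and T cell genes were highest. Their part in the Marco value was not tested.

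Among the 5 repair and lipid-associated genes, 4 rose and Arg1 did not pass. Chil3, the chitinase-like protein Ym1, had the largest fold of all members, from a control range of 0 to 1.86 CPM (median 0.323) to a model range of 2.04 to 34.2 CPM (median 19.3). Groups did not overlap, and the fitted rise was 29.8-fold (log2 fold change 4.90, SE 0.94, adjusted p = 0.00386). The control level rests on 191 counts over 6 libraries, of which control skin library 4 gave 105, and without that library the log2 fold change was 5.68 (adjusted p = 0.00328). Spp1, the secreted protein osteopontin, rose 14.5-fold from 8.24 ± 7.12 to 119 ± 56.9 CPM without overlap (adjusted p = 0.00121). Retnla, a secreted resistin-like protein induced in alternatively activated macrophages, rose 10.3-fold (adjusted p = 0.00131) and ran among model libraries from 26.2 CPM in library 5 to 281 CPM in library 1.

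Trem2, a lipid-sensing receptor, ran from 0.492 over 1.54 to 5.36 CPM in control and from 3.81 over 23.6 to 28.6 CPM in model skin. The overlap came from control skin library 4 and model skin library 5 alone, and the rise was 10.1-fold (log2 fold change 3.33, SE 0.59, adjusted p = 0.00236). Arg1, the arginine-degrading enzyme often read beside Chil3 and Retnla, ran from 25.4 over 35.4 to 49.3 CPM in control and from 23.7 over 49.3 to 68.9 CPM in model skin. The groups overlapped and the log2 fold change of 0.43 (SE 0.25, adjusted p = 0.243) did not pass.

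On the deposited TPM scale, which divides by transcript length and so allows levels of different genes to be set side by side, Lyz2 led the members in control skin at 237 ± 95.8 TPM, followed by Plbd1 at 206 ± 39.2 TPM and Axl at 82.2 ± 12.8 TPM. The first pair lay within 1 SD of each other. Plbd1, Axl and Arg1 (51.2 ± 16.4 TPM), the tested members that did not rise, were thus among the 4 most abundant in control skin. In model skin Lyz2 stood at 1166 ± 446 TPM, then Retnla at 416 ± 314, Ly6c2 at 269 ± 122, Plac8 at 246 ± 138 and Cd68 at 187 ± 64.9 TPM. The differences among these 4 followers of Lyz2 were smaller than the SD of Retnla.

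**Figure D2:**
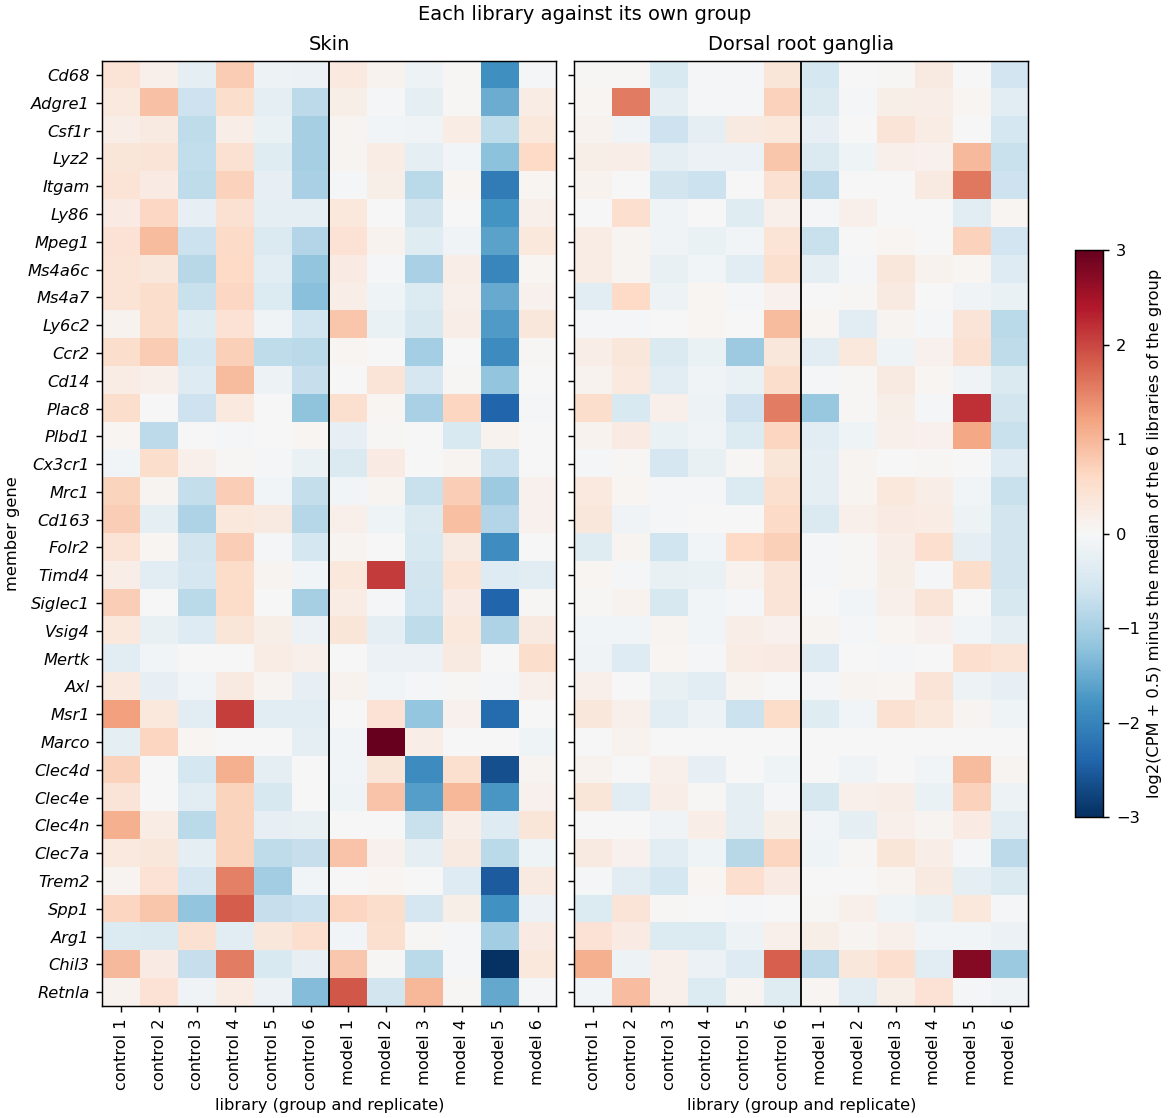
Deviation of each library from the median of its own group of 6, as log2(CPM + 0.5), for the 34 members in skin (left) and DRG (right); red is above and blue below the group median, and colours end at 3 log2 units. In skin, model library 5 is blue for most members and model library 2 is dark red for Marco and Timd4; in DRG, model library 5 is red for Chil3, Plac8, Itgam, Plbd1 and Lyz2.

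Some members share long stretches of sequence with a neighbour, and the labels do not say how the authors assigned reads among them. The longest transcripts of Ly6c2 and Ly6c1 were 97.6% identical over the aligned bases, those of Lyz2 and Lyz1 96.0% and those of Chil3 and Chil4 94.4%. The levels of these 3 members are therefore uncertain to the extent that reads were split between copies. Ms4a6c with Ms4a6b (89.4%) and Retnla with Retnlg (84.5%) were less alike. In the GRCm38.p6 annotation 10 members overlap another gene (Adgre1, Csf1r, Ms4a6c, Plbd1, Cx3cr1, Mrc1, Cd163, Folr2, Clec7a and Arg1), and reads in the shared part could belong to either.

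In DRG none of the 32 members tested passed. Marco and Vsig4 had too few counts for the test. Over all 19509 genes tested in DRG 0.0974% rose and 0% fell with edgeR. An unadjusted p under 0.05 was reached by 1822 genes in either direction, and DESeq2 called 127 higher and 15 lower but no member. Among members the lowest adjusted p was 0.468 (Ly86), and 2 members, Ly86 and Retnla, had an unadjusted p under 0.05. Log2 fold changes ran from -0.83 to 1.45 with a median of 0.08, and 26 of 32 lay within 0.5 of zero. The ranges of the control and model libraries overlapped for all 34 members, while 0.379% of all genes tested had every model library on the higher side and 0.149% every one on the lower side. A p that misses the threshold does not show that levels were equal, and 23 members had a mean of at least 1 CPM in both groups.

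Lineage genes were measurable in DRG at similar levels in both groups. Csf1r ran from 17.2 over 26.8 to 33.7 CPM in control and from 18.5 over 26.8 to 35.5 CPM in model DRG (log2 fold change 0.03, SE 0.18). Adgre1 ran from 3.27 over 4.03 to 12.8 CPM in control and from 3.47 over 4.87 to 5.68 CPM in model DRG (log2 fold change -0.30, SE 0.31, adjusted p = 0.794). Its highest value came from control DRG library 2, without which the log2 fold change was 0.10. Ly86, the partner protein of a toll-like receptor homologue on leukocytes, averaged 17.8 ± 3.84 CPM in control DRG and 13.9 ± 1.47 CPM in the model (log2 fold change -0.36, SE 0.13).

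The monocyte genes Ly6c2 and Ccr2 averaged 6.32 ± 2.24 and 3.19 ± 1.23 CPM in control DRG and 5.97 ± 1.71 and 3.91 ± 1.28 CPM in the model (adjusted p = 0.934 and 0.774). Among resident genes, Mrc1 ran from 16.7 over 22.2 to 31.2 CPM among control libraries and from 14.7 over 23.8 to 29.9 CPM among model libraries (adjusted p = 0.984). Mertk and Axl held 35.7 ± 5.71 and 52.6 ± 6.56 CPM in control DRG and 33.7 ± 7.78 and 59.9 ± 9.83 CPM in the model (adjusted p = 0.89 and 0.605). Scavenger and lectin receptors were low, the highest being Clec7a (1.95 ± 0.844 CPM in control DRG, 2.05 ± 0.624 CPM in the model) and Msr1 (2.03 ± 0.764 and 2.04 ± 0.535 CPM). Trem2 averaged 1.48 ± 0.511 CPM in control DRG and 1.25 ± 0.300 CPM in the model (adjusted p = 0.765), and Arg1 at 0.167 ± 0.160 and 0.246 ± 0.0774 CPM (adjusted p = 0.804).

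Chil3 had the largest positive log2 fold change in DRG, 1.45 (SE 0.78, adjusted p = 0.588), and Plac8 the next at 0.96 (SE 0.80, adjusted p = 0.73). Chil3 in model DRG library 5 stood at 24.8 CPM, while the other 5 model libraries ran from 1.22 to 4.79 CPM. Of the 32 members tested, control DRG library 6 had the highest level of its group for 20 and model DRG library 6 the lowest for 21. Model DRG library 5 had the highest level of its group for 14 of the 32, among them Itgam at 21.8 CPM, Lyz2 at 136 CPM, Plac8 at 6.90 CPM and Plbd1 at 7.33 CPM. The same library was highest in transcripts of neutrophils and their precursors (Ngp at 165, S100a9 at 197 CPM), of eosinophils (Prg2 at 70.1 CPM), of red blood cells (Hbb-bs at 593 CPM) and of B cells (Cd79a at 9.16 CPM). All 10 neutrophil markers together ran from 30.5 to 139 CPM in control and from 31.4 to 532 CPM in model DRG, and 0 of 10 passed the test, with 2 at an unadjusted p under 0.05. Without model DRG library 5 the model range ended at 104 CPM. Plac8 was also high in control DRG library 6, and its log2 fold change was 1.65 without that library. Without model DRG library 5 the log2 fold changes were 0.27 for Chil3, -0.13 for Plac8, 0.03 for Itgam, 0.10 for Lyz2, 0.11 for Plbd1 and -0.06 for Clec4d. With another DRG library left out they reached 1.97 for Chil3, 0.69 for Itgam, 0.54 for Lyz2, 0.64 for Plbd1 and 0.57 for Clec4d. Whether blood or marrow cells account for the member levels in model DRG library 5 was not tested.

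Retnla had the most negative log2 fold change in DRG, -0.83 (SE 0.31, adjusted p = 0.479). Control DRG library 2 held 2.58 CPM of Retnla, while the other control libraries ran from 0.717 to 1.30 CPM and the model libraries from 0.442 to 1.08 CPM. Leaving out control DRG library 2 gave a log2 fold change of -0.50 (adjusted p = 0.674).

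**Figure D3:**
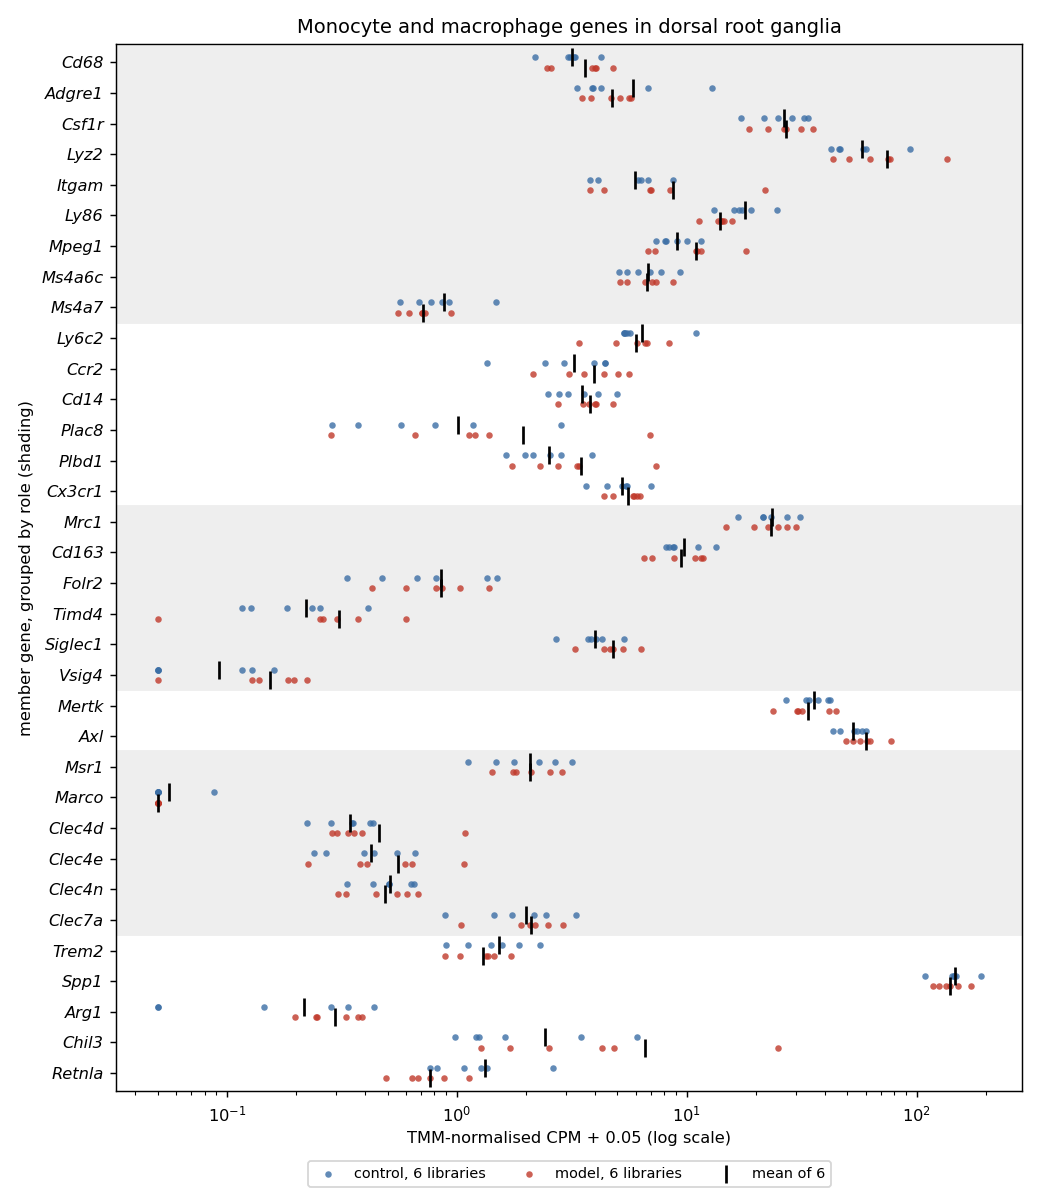
Level of each member in the 12 DRG libraries, as TMM-normalised CPM plus 0.05 on a log axis; blue points are the 6 control libraries, red points the 6 model libraries, black ticks the group means, and bands separate the 6 role groups. The ranges of both groups overlap for all 34 members, and the single red points far to the right for Chil3, Plac8 and Itgam are model library 5.

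The members that led in DRG were not those that led in skin. Spp1 averaged 254 ± 42.5 TPM in control DRG and 252 ± 36.7 TPM in the model, above Lyz2 at 135 ± 43.7 and 180 ± 82.8 TPM and Ly86 at 44.0 ± 9.15 and 35.6 ± 3.67 TPM. Set beside control skin, 4 members had higher TPM in every control DRG library than in any control skin library (Spp1, Ly86, Cx3cr1 and Mertk), 11 had lower values in every DRG library, and 19 overlapped. Spp1, for example, stood at 11.9 ± 10.1 TPM in control skin. Arg1 stood at 51.2 ± 16.4 TPM in control skin and 0.275 ± 0.268 TPM in control DRG. These tissue levels are a description and were not tested, nor were the cells that supplied them. The share of all genes whose control skin and control DRG ranges lie apart was not computed. The counts of 4, 11 and 19 therefore do not set the members apart from other genes.

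The difference between the 2 tissues was tested directly, as the log2 fold change in skin minus that in DRG, in a fit of all 24 libraries. Of 32 members, 28 had a larger effect in skin, beside 10.6% of all 17251 genes tested, and none had a larger effect in DRG, beside 6.43%. Of the latter direction Plbd1 alone had an unadjusted p under 0.05, and DESeq2 called it (adjusted p = 0.0342). The differences that passed ran from 0.64 (Mertk) to 4.14 (Retnla). Those with the smallest p were Ly86 at 3.32 (SE 0.36, adjusted p = 5.84e-06), Ly6c2 at 3.15 (SE 0.44, adjusted p = 8.42e-05) and Siglec1 at 3.39 (SE 0.48, adjusted p = 9.33e-05). Mertk at 0.64 (adjusted p = 0.0434), Cd163 at 1.27 (adjusted p = 0.0314) and Chil3 at 3.40 (adjusted p = 0.0461) lay nearest the threshold. Of the 24 fits that leave out 1 library, Mertk lost its call in 13, Chil3 in 15 and Cd163 in 5. The differences of Chil3 and Plac8 were 4.57 and 4.84 without model DRG library 5 and 2.87 and 3.05 without control DRG library 6, and that of Chil3 was 4.19 without control skin library 4. Without control DRG library 6 the call of Chil3 was lost (adjusted p = 0.0943).

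Timd4, Plbd1, Axl and Arg1 did not pass for the tissue difference. Plbd1 had the opposite sign, -1.03 (SE 0.36, adjusted p = 0.0529), with 0.71 times its control level in model skin and 1.40 times in model DRG. Timd4 differed by 1.90 (SE 0.81, adjusted p = 0.108), and by 1.16 without model skin library 2. Axl at 0.06 (SE 0.16) and Arg1 at -0.21 (SE 0.61) were close to zero, the latter with a wide error.

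**Figure D4:**
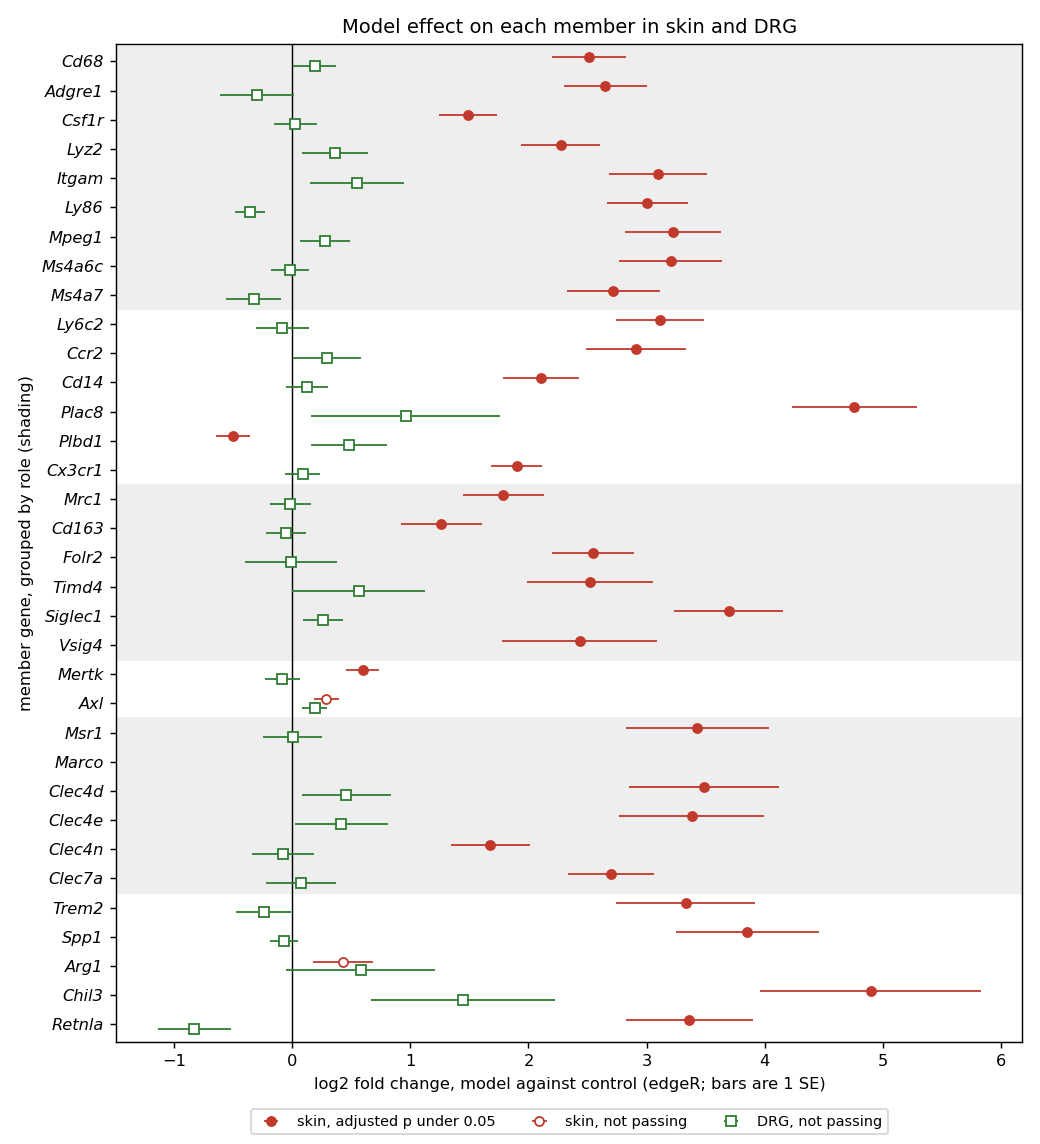
Log2 fold change of model against control for each member in skin (red circles) and DRG (green squares), with bars of 1 SE; filled symbols passed an adjusted p of 0.05 and open symbols did not. Skin symbols lie right of 2 for most members and DRG symbols within 1 of zero, except Chil3 at 1.45 with a wide bar.

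Each member's log2 CPM was set against that of Csf1r, 1 of the lineage genes, in the same library. This asked which members changed more or less than Csf1r, and the difference was tested with limma. In skin 21 of 32 members rose by more than Csf1r, beside 2.13% of all 19525 genes tested, and 4 changed by less, beside 86.4%. Since Csf1r enters every one of these differences, its own error is shared by all of them. The largest excesses over the change of Csf1r were 3.89 log2 units for Chil3 (SE 0.82, adjusted p = 0.00106), 3.07 for Plac8 (SE 0.33, adjusted p = 1.81e-09) and 2.57 for Spp1 (SE 0.35, adjusted p = 2.37e-06). The largest shortfalls were -2.02 for Plbd1 (SE 0.33, adjusted p = 4.68e-06), -1.22 for Axl (SE 0.31, adjusted p = 0.000335) and -1.10 for Arg1 (SE 0.35, adjusted p = 0.00378). In control skin Plbd1, Axl and Arg1 averaged 206, 82.2 and 51.2 TPM, above Csf1r at 37.7 TPM. The part of cells other than macrophages in these levels was not tested.

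Another reference gene shifts all members by the same amount, so their order is the same for each reference and only the zero point and the calls move. Relative to Adgre1, which rose 6.28-fold, 5 members were above and 8 below, beside 0.451% and 95.7% of all genes tested. Relative to Mpeg1, which rose 9.32-fold, 2 members were above and 12 below, beside 0.236% and 97.4% of all genes. Of the 25 members called relative to Csf1r, the sign turned for 3 relative to Adgre1 and for 14 relative to Mpeg1, counts that this common shift fixes. Chil3 and Plac8 were above all 3 reference genes, with excesses over Mpeg1 of 2.17 and 1.35. Arg1, Axl, Mertk and Plbd1 were below all 3. Mrc1, Cd163 and Clec4n did not differ from Csf1r by the test but were below both Adgre1 (-0.90, -1.40 and -0.89) and Mpeg1. In DRG 0 of 31 members differed from Csf1r in either direction, beside 0.836% of genes above and 0.00513% below. An unadjusted p under 0.05 was reached by 2 of them, Retnla at -0.75 and Arg1 at 0.99.

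**Figure D5:**
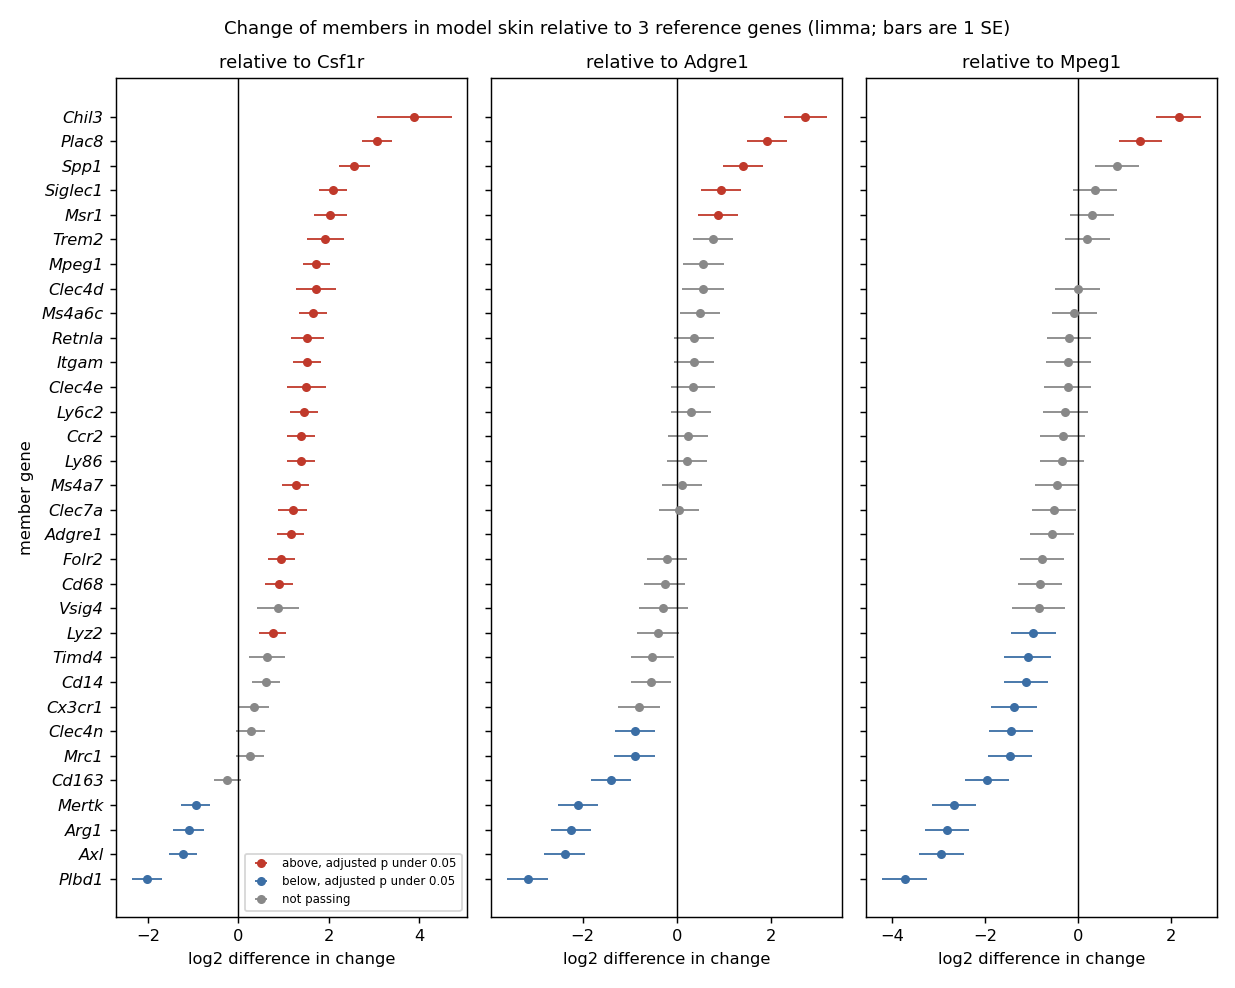
Change of each member in model skin minus the change of a reference gene in the same libraries (Csf1r, Adgre1 and Mpeg1 from left to right), in log2 units with bars of 1 SE; red and blue points passed above and below zero, grey points did not pass. Chil3 and Plac8 are red and Mertk, Arg1, Axl and Plbd1 blue in all 3 panels, while most other members change colour or side with the reference.

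The ligands that draw and sustain monocytes rose in part in model skin. Among 9 monocyte chemoattractants 7 rose (median over the list 3.70 log2 units), while Cxcl12 and Cx3cl1 did not pass. Ccl8 rose 5.08-fold from 45.3 ± 13.1 to 230 ± 83.1 CPM, and the Ccr2 ligands Ccl2 and Ccl7 rose 9.99-fold to 40.0 ± 22.5 CPM and 13.02-fold to 29.8 ± 17.7 CPM (adjusted p = 0.000548, 0.000582 and 0.000583). Of 7 tested growth factors and receptors 4 rose: the receptor chains Csf2ra (2.85-fold), Csf2rb (2.85-fold) and Csf2rb2 (2.26-fold), and Csf1, the main Csf1r ligand (1.93-fold, adjusted p = 0.00708). Il34, the other Csf1r ligand, averaged 22.98 ± 15.2 CPM in control skin and 22.9 ± 6.63 CPM in the model (adjusted p = 0.997).

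Downstream partners rose in part. Of 9 adaptors and signalling enzymes that act below Trem2 and the lectin receptors 7 rose. Those with the smallest p were Fcer1g (7.23-fold), the phosphatase Inpp5d (3.92-fold), which restrains such signals, and Tyrobp (5.59-fold). Among 11 myeloid transcription factors 4 rose, which were Spi1 (5.40-fold, from 6.12 ± 2.42 to 33.0 ± 11.2 CPM), Irf8, Irf5 (2.07-fold) and Batf3 (3.82-fold), and the list's median log2 fold change was 0.22. Of 12 further genes of apoptotic cell clearance 6 rose, among them Elmo1 (2.01-fold), Stab1 (3.16-fold) and Stab2 (6.43-fold). The lysosome and lipid list had 4 of 12 higher, with Ctss rising 10.4-fold to 460 ± 182 CPM, Lgmn 4.98-fold and Cd63 1.59-fold. Its log2 fold changes ran from -0.95 to 3.37 with a median of 0.31, and 7 of 12 were positive.

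Genes of classical and of alternative activation both rose. Of 12 classical genes 9 rose (median log2 fold change 1.69), those with the smallest p being Irf1 (2.30-fold), Cd80 (3.24-fold) and Cd40 (3.99-fold), while Tnf, Il6 and Ptgs2 did not pass. Of 10 tested alternative genes 6 rose (median 0.91), those with the smallest p being Pdcd1lg2 (2.49-fold), Ccl24 (3.78-fold) and Il4ra (2.15-fold), and Il4 and Il13 had too few counts to be tested. No gene of these 8 lists passed as lower in skin. In DRG none passed in either direction with edgeR, and between 0 and 3 genes of a list had an unadjusted p under 0.05.

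Markers of other leukocytes rose in the same skin libraries as the members. These were 5 of 8 tested neutrophil genes (Retnlg 68.9-fold to 16.7 ± 12.7 CPM, Csf3r 11.3-fold, Trem1 5.23-fold), 7 of 9 dendritic and Langerhans cell genes, 5 of 7 mast cell genes, 3 of 3 eosinophil genes and 5 of 7 T cell genes. Summed levels of the neutrophil list nevertheless overlapped, from 28.4 to 288 CPM in control and from 65.6 to 278 CPM in model skin, and S100a8 and S100a9 did not pass. The defining neutrophil gene Ly6g was at 0 in 5 of 6 control libraries and the eosinophil gene Epx at 0 in 6 of 6, and their highest model values were 0.178 and 0.0824 CPM. Summed dendritic and Langerhans cell markers overlapped too, from 378 to 527 CPM in control and from 339 to 530 CPM in model skin. Summed T cell markers ran from 6.08 to 17.6 CPM in control and from 16.2 to 198 CPM in model skin. Without model skin library 2 the model range ended at 32.5 CPM. Summed mast cell markers ran from 74.5 to 109 CPM in control and from 118 to 207 CPM in model skin, those of eosinophils from 0.638 to 2.21 CPM and from 3.07 to 30.2 CPM. Several members, such as Itgam, Clec4d, Clec4e and Cd14, are also used by neutrophils or dendritic cells, and the part of these cells in the member changes was not tested.

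Few genes of fibroblasts, keratinocytes, sensory neurons and glia passed in skin. Of 5 fibroblast genes 2 rose, Pdgfra 1.96-fold and Col1a1 1.53-fold, and none of 5 keratinocyte, 2 tested sensory neuron or 6 Schwann and satellite glia genes passed. Red blood cell genes were higher for 4 of 6, by up to 2.50-fold. Of 4 tested genes that mark microglia elsewhere 3 rose (P2ry12, Tmem119 and Siglech), as did 4 of 6 genes of large peritoneal macrophages, whose defining factor Gata6 did not pass. In DRG the one gene of these lists that passed was the Langerhans cell gene Cd207, which averaged 0.0853 ± 0.0447 CPM in control DRG and 0.557 ± 0.151 CPM in the model without overlap (adjusted p = 0.0152).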

How the data were processed

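The 34 members, the gene lists and the promoter motifs were chosen with earlier results of these data known. Groups were taken from the sample titles. Per the submitters' processing notes, the authors' tools were StringTie 2.1.3b, HISAT2 2.1.0, Trimmomatic and bcl2fastq 2.20.0, and the build was GRCm38/mm10. The counting tool and its strand setting are not named in the labels. The authors deposited whole read counts per gene, without normalization, and TPM values scaled for length and library. The deposited FPKM values were not used.

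Counts were tested in R 4.3.3 with edgeR 4.0.16 (TMM factors, filterByExpr, robust quasi-likelihood fit), within each tissue and, for the tissue difference, over all 24 libraries. Adjusted p under 0.05 (Benjamini-Hochberg) counted as passing. Changes relative to Csf1r were tested with limma 3.58.1 on log2 CPM (prior count 2). The tests were also run on simulated counts with known fold changes, balanced in direction. No simulated library stood apart from its group, so this check does not cover such libraries. Genes were named by rule: in each role group up to 3 called members with the largest change and at least 1 CPM, always Csf1r, Adgre1, Ly6c2, Ccr2, Mrc1, Trem2 and Arg1, and from other lists up to 3 genes with the smallest p; other genes were named after their values were seen. The B cell marker list is not reported here. Libraries of a group were compared in pairs by their counts, and none was a duplicate of another. Alternatives were DESeq2 1.42.0, RLE factors, other filters, limma on log2 TPM (pseudocount 1 or 0.1), 1 fit of 24 libraries, the replicate number as a block, other reference genes and leaving out each library.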

Additional observations from a re-analysis of the deposited data

Results flagged for a closer look

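In 15 of the 130 groups of 6 libraries checked, 1 library lay apart from the other 5 by Dixon's criterion. Independent, normally distributed values meet this criterion in about 1 in 20 groups. The CPM were not transformed and the members share libraries, so the count of 15 cannot be set against that rate. In model DRG library 5 the flagged members were Chil3 at 24.8 CPM, Clec4d at 1.04 CPM, Itgam at 21.8 CPM, Lyz2 at 136 CPM, Plac8 at 6.90 CPM and Plbd1 at 7.33 CPM, all above the other 5 model libraries. Control DRG library 6 was high in Ly6c2 at 10.9 CPM, Lyz2 at 93.2 CPM and Plac8 at 2.79 CPM. It was also the highest control library in Ngp at 37.2 CPM and Hbb-bs at 201 CPM. Control DRG library 2 was high in Adgre1 at 12.8 CPM and Retnla at 2.58 CPM. In skin, model library 5 was low in Cd68 at 33.4 CPM, control library 2 was low in Plbd1 at 120 CPM, model library 2 was high in Timd4 at 14.8 CPM, and control library 4 was high in Trem2 at 5.36 CPM.

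For 28 members the model effect differed between skin and DRG by the test of the difference, and it was larger in skin for each of them. The log2 differences of lineage genes were 3.32 for Ly86, 3.17 for Ms4a6c, 3.00 for Ms4a7, 2.91 for Adgre1, 2.90 for Mpeg1, 2.51 for Itgam, 2.27 for Cd68, 1.87 for Lyz2 and 1.42 for Csf1r. Those of monocyte genes were 3.77 for Plac8, 3.15 for Ly6c2, 2.57 for Ccr2, 1.93 for Cd14 and 1.77 for Cx3cr1. Resident and clearance genes gave 3.39 for Siglec1, 2.51 for Folr2, 1.76 for Mrc1, 1.27 for Cd163 and 0.64 for Mertk. Scavenger and lectin receptors gave 3.37 for Msr1, 2.98 for Clec4d, 2.92 for Clec4e, 2.58 for Clec7a and 1.71 for Clec4n. Repair genes gave 4.14 for Retnla, 3.87 for Spp1, 3.53 for Trem2 and 3.40 for Chil3.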

How the results depend on the processing

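Of the 31 calls in skin 28 held in every alternative tried, the exceptions being Plbd1, Cd163 and Vsig4. The count of risen members was 29 or 30 over other settings and 28 to 31 with 1 library left out. The count of fallen members was 0 with limma on log2 TPM at either pseudocount, in the fit of all 24 libraries and with the replicate block, and 0 to 1 with 1 library left out. Members above and below the reference in skin numbered 5 and 8 for Adgre1 and 2 and 12 for Mpeg1, against 21 and 4 for Csf1r (20 to 23 and 4 with 1 library left out). The count of members with a larger effect in DRG was 1 (Plbd1) with DESeq2 and with RLE factors and 0 to 1 with 1 library left out; that of a larger effect in skin was 25 to 28. In DRG no setting called a member.

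Log2 fold changes in DRG, none of which passed, changed sign with limma on log2(TPM + 1) and log2(TPM + 0.1) for Ms4a6c (0.0205 and 0.0224), Mrc1 (0.0236 and 0.0246) and Folr2 (0.0658 and 0.13), and for Folr2 with the replicate block (0.11). With 1 library left out they changed sign for Adgre1 (-0.42 to 0.10), Cd163 (-0.13 to 0.0458), Clec4d (-0.0573 to 0.57), Clec4n (-0.21 to 0.0301), Clec7a (-0.0859 to 0.27), Csf1r (-0.0762 to 0.11), Cx3cr1 (-0.0023 to 0.18), Folr2 (-0.21 to 0.22), Ly6c2 (-0.20 to 0.13), Mrc1 (-0.11 to 0.0828), Ms4a6c (-0.11 to 0.0852), Msr1 (-0.13 to 0.15), Plac8 (-0.13 to 1.65) and Spp1 (-0.15 to 0.0208). The skin minus DRG difference changed sign for Arg1 (-0.58 to 0.0779) and Axl (-0.0092 to 0.18). The cause was not tested.

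The replicate numbers were not taken to pair libraries: correlations of same-numbered control and model libraries ran from -0.513 to 0.257 in skin and from -0.382 to -0.051 in DRG, and no library correlated best with its own number there. Between skin and DRG libraries of the same number they ran from -0.144 to 0.0789, and 2 control and 1 model number correlated best with their own. With the replicate block 24 members had a larger effect in skin, and Plac8, Clec4d, Clec4e and Chil3 lost that call (adjusted p = 0.0527, 0.0529, 0.0513 and 0.0606). The count of all genes lower in model skin was 1137, against 2191 with DESeq2, 747 with no filter, 447 or 448 with limma on log2 TPM, 3177 in the fit of 24 libraries and 540 with the block. It ran from 308 to 2554 with 1 library left out. All genes higher in model DRG numbered 19, against 127 with DESeq2, 33 in the fit of 24 libraries, 12 at a minimum of 1 CPM and 6 with the block. All genes with a larger model effect in DRG numbered 1110, against 1687 with DESeq2, 654 with TMM within each tissue and 669 with the block. All genes above the reference in skin numbered 416 for Csf1r, 88 for Adgre1 and 46 for Mpeg1; in DRG they numbered 163, 85 and 59, and 77 with the block for Csf1r. Levels under about 1 CPM, as of Marco, Vsig4 and Timd4, rest on few counts.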
